A study of Mus musculus with 2 samples.

Results

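A set of 8 genes of iron and heme handling, Hmox1, Blvrb, Fth1, Ftl1, Slc40a1, Slc11a1, Tfrc, and Cd163, were followed across the macrophage, neutrophil, and lymphoid clusters of nephritic mouse kidneys. The genes were taken by name, and all 8 were among the 20299 genes of the count table. The cells came from 8-week-old C57BL/6 mice with nephrotoxic serum nephritis (NTN), an antibody-driven glomerular injury. WT mice and Vsir-/- mice, which lack VISTA, an inhibitory checkpoint protein of myeloid cells and T cells, were compared. Both genotypes received 200 μg of sheep IgG in complete Freund's adjuvant and, 4 days later, sheep nephrotoxic serum. The serum dose was 2 μl/g by the labels, whereas the study's methods give a higher dose. Both libraries are thus of injured kidneys, and no healthy kidney was compared. Vsir-/- is a germline deletion, so every cell type of those mice lacks the gene. Kidneys were digested with liberase and profiled by droplet scRNA sequencing of transcript 3′ ends in 1 library per genotype, and the sources used here do not state how many mice each library pools. By its label, the WT library is of sorted CD45+ cells, whereas the label of the Vsir-/- library includes every kind of kidney cell and the study's methods describe a CD45+ sort.

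Macrophages recover iron from hemoglobin and damaged cells. Blvrb encodes biliverdin reductase B. CD163 takes up hemoglobin bound to haptoglobin, and heme oxygenase 1 (Hmox1) opens the heme ring and frees its iron. The freed iron is either stored in ferritin, a shell of heavy chains (Fth1, which oxidizes iron) and light chains (Ftl1, which helps form the mineral core), or exported through ferroportin (Slc40a1). Transferrin receptor 1 (Tfrc) brings in iron bound to transferrin, and NRAMP1 (Slc11a1) moves metal ions out of the phagosome of myeloid cells.

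There were 5470 cells and 32799550 UMIs (unique molecular identifiers, each marking 1 captured transcript) in WT, against 1844 cells and 18601189 UMIs in Vsir-/-. Median depth was 4726 UMIs per cell in WT and 6673 in Vsir-/-, and 5 cell barcodes occurred in both libraries. Vsir itself had 4278 UMIs in WT and 8 in Vsir-/-. Ptprc, which encodes CD45, had a UMI in 94.2% of the WT and 73.6% of the Vsir-/- cells. With 1 library per genotype there is no replicate error and no test, so each level is UMIs per 1000000 UMIs of the cluster (CPM) with a 95% exact Poisson interval, which covers counting error only. Cluster names are the authors'. Of the markers measured, 8 of 9 for R1 macrophages, 6 of 7 for patrolling monocytes (the cluster named other R2), and 7 of 7 for neutrophils were highest in their own cluster in both libraries. The M2-like R2 cluster was highest for only 5 of 8 monocyte and R2 markers in WT and 4 of 8 in Vsir-/-. Csf1r was on both this list and the R1 list. No list of M2 markers was used, so the M2-like part of the name was not examined.

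In all 3 macrophage clusters, both ferritin chains were higher in the Vsir-/- library. The same held in each of the 11 clusters compared between genotypes, neutrophils and lymphoid clusters included. In EM-like CD4+ T cells, for example, the log2 ratio of Fth1 was 0.78. For Ftl1, the log2 ratio in EM-like CD8+ T cells was 0.24 with an interval that includes 0 (-0.03 to 0.50). In gdT cells, it was 0.41, but -0.10 when every cell was thinned to 1000 UMIs. Fth1 was 4140 CPM (3990 to 4294) in WT R1 macrophages and 6928 CPM (6800 to 7058) in Vsir-/- R1 macrophages. In M2-like R2 macrophages, Fth1 was 3150 CPM (3098 to 3203) in WT against 7246 CPM (7118 to 7376) in Vsir-/-. In other R2 cells, it was 3374 CPM (3275 to 3477) and 8713 CPM (8506 to 8924). These are log2 ratios of Vsir-/- over WT of 0.74 (0.68 to 0.80), 1.20 (1.17 to 1.24), and 1.37 (1.31 to 1.42), so the 2 R2 clusters passed 2-fold and R1 did not. Neutrophils, which had the highest Fth1 level of the WT clusters, differed less, with 6273 CPM (6174 to 6372) in WT and 8400 CPM (8198 to 8606) in Vsir-/-.

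The light chain was ordered differently. Ftl1 was 1993 CPM (1889 to 2101) in WT R1 macrophages and 4278 CPM (4177 to 4381) in Vsir-/- R1 macrophages, a log2 ratio of 1.10 (1.02 to 1.19). In M2-like R2 macrophages, it was 3188 CPM (3135 to 3241) and 4095 CPM (3999 to 4193), a log2 ratio of 0.36 (0.32 to 0.40). In other R2 cells, it was 2825 CPM (2734 to 2918) and 4804 CPM (4650 to 4961), a log2 ratio of 0.77 (0.70 to 0.83). Thus R1 had the largest light-chain ratio of the 3 macrophage clusters and the smallest heavy-chain ratio. Neutrophils again differed least, with 3260 CPM (3189 to 3332) in WT and 3728 CPM (3594 to 3867) in Vsir-/-. Both chains together made up 0.613% to 0.634% of all UMIs in the WT macrophage clusters and 1.12% to 1.35% in the Vsir-/- ones.

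**Figure D1:**
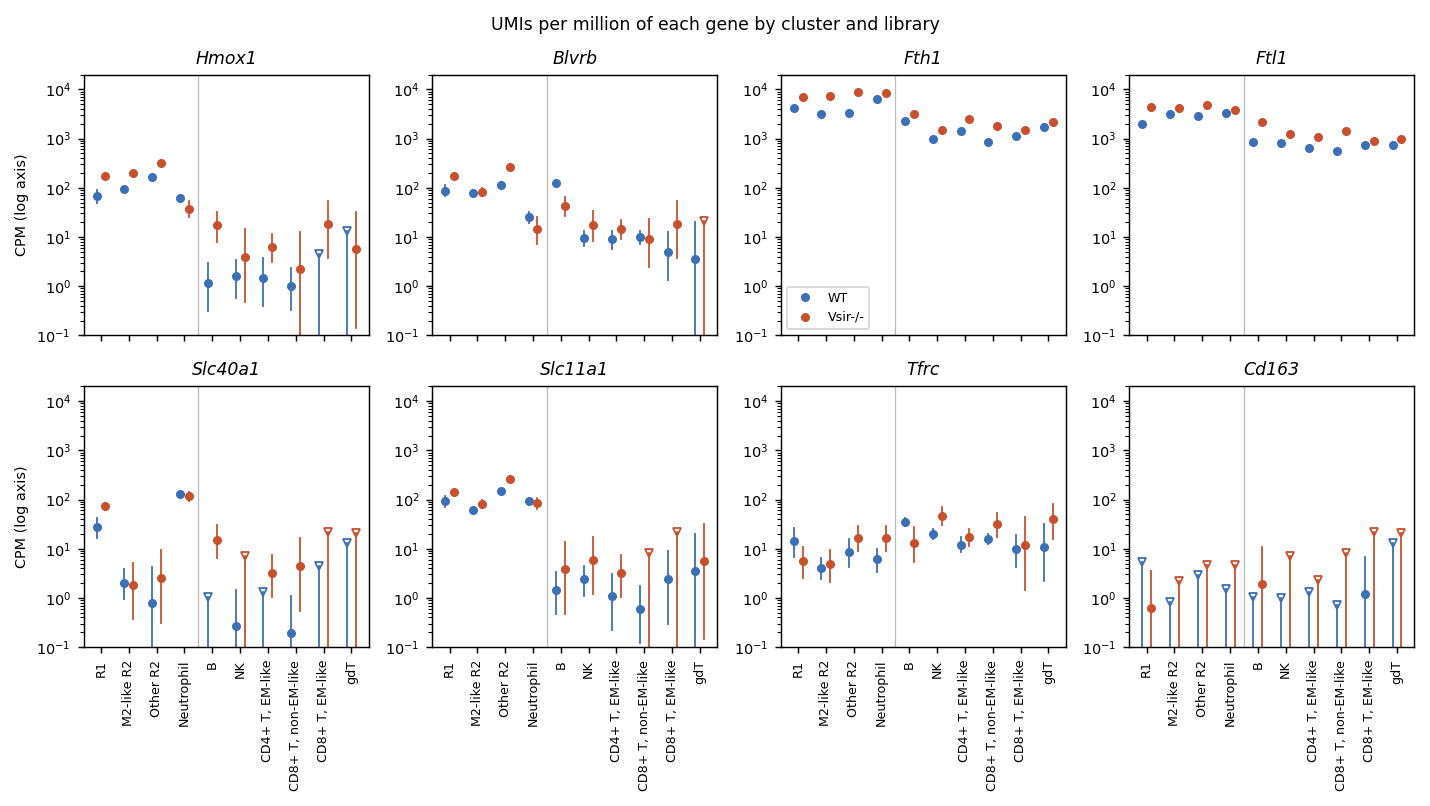
UMIs per 1000000 (CPM, log axis) of each of the 8 genes in 4 myeloid clusters (left of the grey line) and 6 lymphoid clusters, in the WT library (blue) and the Vsir-/- library (orange). Points are levels, bars are 95% exact Poisson intervals cut at the lower axis limit, and open triangles mark the upper limit where no UMI was found. Fth1 and Ftl1 lie above the other 6 genes in every cluster, Hmox1 and Slc11a1 are high on the myeloid side, Slc40a1 is highest in neutrophils, and Cd163 is at or near 0.

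The promoters of both ferritin chains are shown because the chains differed together between libraries while their ratio differed by cluster, and that of Slc11a1 because its UMIs were almost all myeloid. Each is the 250 bases before the transcription start in RefSeq (GRCm38.p6), read 5′ to 3′ on the gene's strand, at chr19:9982396-9982645 (plus strand) for Fth1, chr7:45459887-45460136 (minus strand) for Ftl1, and chr1:74374953-74375202 (plus strand) for Slc11a1. Capitals mark the matches to 6 motifs searched on both strands, which did not overlap each other in these windows.
Fth1: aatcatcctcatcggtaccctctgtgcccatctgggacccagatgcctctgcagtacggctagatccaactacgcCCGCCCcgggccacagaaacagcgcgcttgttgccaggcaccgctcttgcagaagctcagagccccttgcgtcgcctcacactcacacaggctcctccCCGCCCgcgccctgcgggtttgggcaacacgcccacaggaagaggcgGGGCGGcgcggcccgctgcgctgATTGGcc
Ftl1: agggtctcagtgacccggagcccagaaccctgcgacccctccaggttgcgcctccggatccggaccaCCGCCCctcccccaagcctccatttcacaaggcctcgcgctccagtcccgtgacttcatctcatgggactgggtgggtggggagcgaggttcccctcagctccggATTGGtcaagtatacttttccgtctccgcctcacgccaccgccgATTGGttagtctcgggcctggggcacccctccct
Slc11a1: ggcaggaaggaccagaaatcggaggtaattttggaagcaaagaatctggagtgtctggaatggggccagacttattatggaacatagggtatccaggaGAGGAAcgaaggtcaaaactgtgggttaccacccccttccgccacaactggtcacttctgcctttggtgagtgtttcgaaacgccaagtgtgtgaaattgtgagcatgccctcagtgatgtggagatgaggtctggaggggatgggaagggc
The Fth1 window held 3 GC boxes (GGGCGG) and 1 NF-Y box (CCAAT), the latter 7 bases before the start. The Ftl1 window held 1 GC box and 2 NF-Y boxes, at 78 and 34 bases before the start. The Slc11a1 window held 1 PU.1 core (GAGGAA) and neither of those boxes. Of 32851 RefSeq windows of the same length, 32.7% held a GC box, 33.8% an NF-Y box, and 23.3% a PU.1 core. The antioxidant response element core (TGACNNNGC, in 10.2% of windows), the AP-1 site (TGANTCA, in 6.75%), and the TATA box (TATAAA, in 12.4%) had no match in any of the 3 windows. Windows were found for 6 of the 8 genes, Hmox1 and Slc40a1 being the exceptions.

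The balance of the chains was read from the share of ferritin UMIs that were Ftl1, which is a ratio within the same cells and needs no CPM denominator. Because 3′ UMIs count transcript ends, this share is not scaled by transcript length. In WT M2-like R2 macrophages, the light chain was 50.3% of ferritin UMIs (95% Clopper-Pearson interval, 49.7% to 50.9%), and in their Vsir-/- counterparts it was 36.1% (35.4% to 36.8%). In other R2 cells, the share was 45.6% (44.5% to 46.7%) in WT and 35.5% (34.6% to 36.5%) in Vsir-/-. R1 macrophages went the other way, from 32.5% (31.1% to 33.9%) in WT to 38.2% (37.5% to 38.9%) in Vsir-/-. The WT macrophage clusters thus spanned 32.5% to 50.3%, and the Vsir-/- clusters lay close together at 35.5% to 38.2%. Neutrophils had 34.2% (33.6% to 34.8%) and 30.7% (29.8% to 31.7%), and NK cells had the same share in both libraries within counting error, 45.2% (44.0% to 46.4%) and 45.1% (42.5% to 47.8%).

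**Figure D2:**
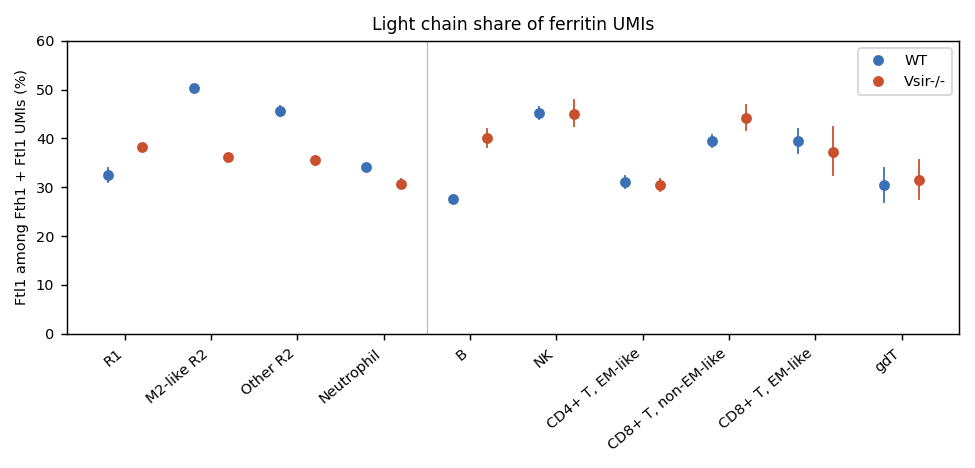
Percent of ferritin UMIs (Fth1 plus Ftl1) that were Ftl1, by cluster, in the WT (blue) and Vsir-/- (orange) libraries, with 95% Clopper-Pearson intervals. Between libraries, the share was lower in Vsir-/- M2-like R2 (50.3% against 36.1%) and other R2 cells, and higher in Vsir-/- R1 macrophages (32.5% against 38.2%) and B cells.

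Ftl1 shares near-identical sequence with pseudogenes, of which Ftl1-ps1 was counted separately. Ftl1-ps1 had 7.20 CPM in WT R1 macrophages and 28.7 CPM in Vsir-/- R1 macrophages, with 12.3 and 26.9 CPM in M2-like R2 macrophages. How the counting divided reads between the gene and its copies was not tested.

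When every cell was thinned to 1000 UMIs, the difference in ferritin was visible across the cells and not only in the sums. The median cell held 4 Fth1 UMIs in WT R1 macrophages (109 cells) and 7 in Vsir-/- R1 macrophages (212 cells). The medians were 3 and 6 in M2-like R2 macrophages (409 and 159 cells), 3 and 7 in other R2 cells (180 and 127 cells), and 6 and 7 in neutrophils (503 and 153 cells). The upper tail was longer too, the 90th percentile of Fth1 being 6 in WT and 15 in Vsir-/- M2-like R2 macrophages. For Ftl1, the median was 2 and 4 in R1, 3 and 4 in M2-like R2, and 2 and 4 in other R2. In NK cells, the median was 1 for either chain in either library. The highest cell held 9.38% of the Fth1 UMIs in Vsir-/- M2-like R2 macrophages, and at most 5.48% in the other macrophage sums. Without the highest cell of each library, the log2 ratios of Fth1 were 0.74, 1.09, and 1.38 in R1, M2-like R2, and other R2.

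**Figure D3:**
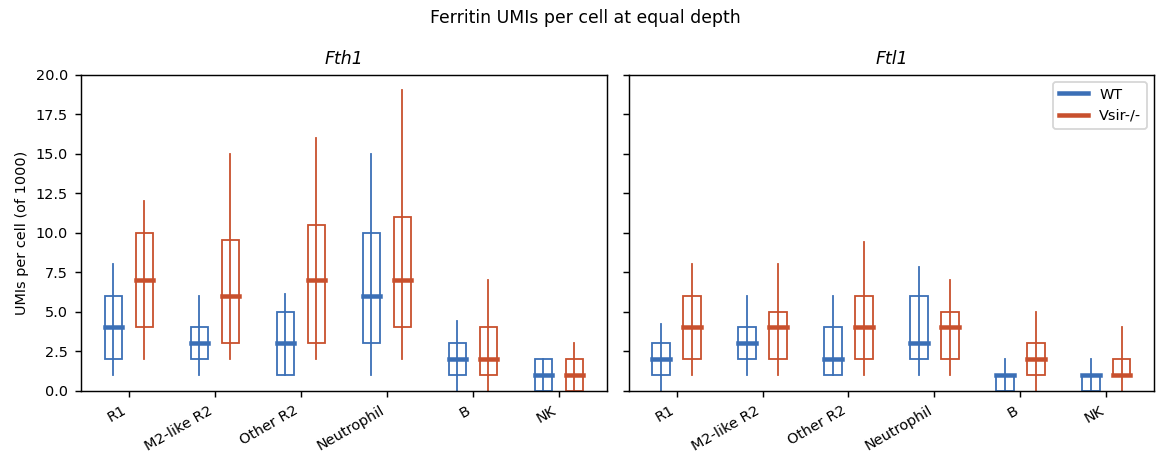
UMIs of Fth1 and Ftl1 per cell after thinning each cell to 1000 UMIs, in WT (blue) and Vsir-/- (orange) cells of 6 clusters. Thick lines are medians, boxes span the 25th to 75th percentiles, and whiskers the 10th to 90th. The Fth1 medians of the macrophage clusters were 3 to 4 in WT and 6 to 7 in Vsir-/-.

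Transcripts of kidney tubule cells also differed between the libraries. The tubule list, led by Gpx3 and Napsa, was 429, 818, and 878 CPM in WT R1, M2-like R2, and other R2 cells and 2609, 2026, and 3063 CPM in the Vsir-/- clusters. In neutrophils, it was 140.3 CPM (WT) and 3683 CPM (Vsir-/-), beside log2 ratios of 0.42 for Fth1 and 0.19 for Ftl1. In the Vsir-/- cluster named non-EM-like CD4+ T cells, 218 of 349 cells had neither a T cell transcript nor a Ptprc UMI, and their tubule list summed to 17321 CPM. These cells had 4599 CPM of Fth1 and 3010 CPM of Ftl1, below every Vsir-/- macrophage cluster. The Fth1 level was above every WT macrophage cluster. The Ftl1 level was above WT R1 and other R2 and below WT M2-like R2. A limit on the tubule list of 0.5% of a cell's UMIs kept 5470 WT and 1452 Vsir-/- cells. With it, Fth1 stayed higher in the 3 Vsir-/- macrophage clusters. This limit kept every WT cell and lay above the list's level in each Vsir-/- macrophage cluster. It thus left tubule transcripts in the kept cells and cannot show their part in the ratio. Over all alternatives, the log2 ratio of Fth1 was 0.68 to 0.74 in R1, 1.09 to 1.36 in M2-like R2, and 1.17 to 1.44 in other R2. The list of dissociation-stress genes, led by Junb, Fos, and Jun, was 5659 CPM in WT against 9090 CPM in Vsir-/- other R2 cells, 7589 and 8978 CPM in M2-like R2, 7480 and 9941 CPM in R1, and 8368 and 5223 CPM in neutrophils. The R1 marker list was 5074 CPM in WT against 16234 CPM in Vsir-/- M2-like R2 macrophages, so that cluster differed between libraries in more than ferritin. Lymphocyte marker lists were higher in the WT macrophage clusters. The B cell marker list was 1131 CPM in WT against 56.2 CPM in Vsir-/- R1 macrophages. It was 319 and 11.3 CPM in M2-like R2 and 1188 and 7.76 CPM in other R2, beside 5678 CPM in WT B cells. The T cell marker list was 574 CPM in WT against 20.6 CPM in Vsir-/- R1 and 320 and 6.47 CPM in other R2. The part of these lists in the ferritin levels was not tested. The erythroid list, led by Slc4a1, Hbb-bs, and Hba-a1, was 0 to 0.806 CPM in the WT myeloid clusters and 9.06 to 14.2 CPM in the Vsir-/- ones. Its sum was thus low in both libraries but higher in Vsir-/-. It was 65.5 CPM in the Vsir-/- non-EM-like CD4+ T cell cluster, whose tubule list was 13953 CPM. In WT group 2 innate lymphoid cells it was 114 CPM, beside a tubule list of 47.1 CPM. Which cells these transcripts came from was not tested.

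Hmox1 was mostly a myeloid transcript, and some of its sums rested on few cells. The 3 macrophage clusters together held 79.0% of its UMIs in WT and 74.4% in Vsir-/-. Its level was 67.6 CPM (49.7 to 89.9) in WT against 171 CPM (151 to 193) in Vsir-/- R1 macrophages. It was 95.2 CPM (86.2 to 105) and 197 CPM (176 to 219) in M2-like R2, and 169 CPM (147 to 193) and 321 CPM (282 to 363) in other R2, the highest level of either library. Neutrophils went the other way, with 61.3 CPM (51.9 to 71.8) in WT and 37.3 CPM (25.0 to 53.6) in Vsir-/-. B cells, which are not known for Hmox1 expression, had 4 UMIs in 4 of 969 WT cells and 9 UMIs in 6 of 88 Vsir-/- cells. These are 1.15 CPM (0.313 to 2.94) and 17.2 CPM (7.84 to 32.6), beside tubule lists of 449 and 6201 CPM.

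The cells with the most Hmox1 UMIs, chosen after their values were seen, show how uneven some of the sums were. In Vsir-/- R1 macrophages, 1 cell with 28490 UMIs held 142 of 274 Hmox1 UMIs. The same cell held 96 of 116 Slc40a1 UMIs, 523 Fth1 UMIs, and 470 Ftl1 UMIs, together with 30 UMIs of Spic, 59 of Vcam1, 140 of Cd5l, and 154 of C1qa. Spic encodes a transcription factor of iron-recycling macrophages of the spleen, and Vcam1 and Cd5l are known transcripts of such cells. In WT R1 macrophages, 1 cell held 19 of 47 Hmox1 UMIs and 12 of 19 Slc40a1 UMIs, with none of Spic, Vcam1, or Cd5l. In Vsir-/- M2-like R2 macrophages, 1 cell of 6412 UMIs held 105 of 330 Hmox1 UMIs, and the next held 33. In other R2, the highest cell of either library held 47. The transcript was spread more evenly in WT M2-like R2 macrophages, where 418 UMIs lay in 206 of 456 cells and the highest cell held 2.87%, and in WT neutrophils, where 152 UMIs lay in 105 of 524 cells and the highest held 5.26%. Whether the cell of 28490 UMIs is a doublet was not tested, its cluster having a median of 5921 UMIs per cell.

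Without the highest cell of each library, the log2 ratio of Hmox1 was 1.04 (0.44 to 1.68) in R1, where it had been 1.34 (0.89 to 1.82). In M2-like R2, it was 0.54 (0.30 to 0.78) in place of 1.05 (0.84 to 1.26), so the 2-fold difference there rested on the Vsir-/- cell with 105 UMIs, the highest WT cell having 12. In other R2, it was 0.96 (0.66 to 1.27) in place of 0.93 (0.66 to 1.20). An Hmox1 UMI was found in 19.0% of WT and 28.7% of Vsir-/- R1 cells, in 45.2% of the M2-like R2 cells of either library, and in 30.9% and 45.0% of other R2 cells. At 1000 UMIs per cell, the share of cells with an Hmox1 UMI was 6.42% (2.62% to 12.8%) in WT and 7.55% (4.38% to 12.0%) in Vsir-/- R1, and 7.82% (5.41% to 10.9%) and 7.55% (3.96% to 12.8%) in M2-like R2. It was 8.89% (5.17% to 14.0%) and 15.0% (9.25% to 22.4%) in other R2, and 7.55% (5.40% to 10.2%) and 6.54% (3.18% to 11.7%) in neutrophils. These intervals overlap in each cluster. They cover the sampling of cells within 1 library per genotype, and a difference between genotypes was not tested. In B cells, the share at 1000 UMIs was 0 of 947 WT and 0 of 72 Vsir-/- cells, and before thinning, at medians of 3426 and 3596 UMIs per cell, it was 0.413% (0.113% to 1.05%) and 6.82% (2.54% to 14.3%).

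**Figure D4:**
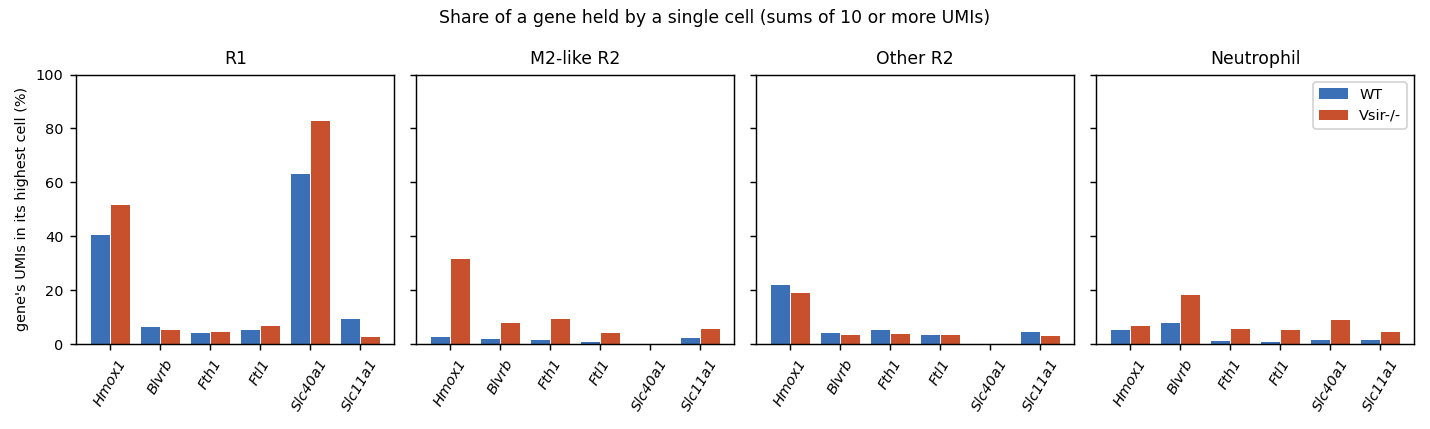
Percent of a gene's UMIs in a cluster that lay in its highest cell, for 6 genes in the 4 myeloid clusters of the WT (blue) and Vsir-/- (orange) libraries, with no bar where the sum was under 10 UMIs. A single cell held 51.8% of Hmox1 and 82.8% of Slc40a1 in Vsir-/- R1 macrophages, whereas the highest cell of either ferritin chain held under 10% in each case.

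Slc40a1, the iron exporter, was spread over neutrophils. They held 90.5% of its UMIs in WT and 22.4% in Vsir-/-. In Vsir-/-, R1 macrophages held 28.9%, the non-EM-like CD4+ T cell cluster 24.9%, and the cluster of proliferating cells 18.4%. It was 127 CPM (114 to 142) in WT against 116 CPM (93.1 to 142) in Vsir-/- neutrophils, and 42.9% (38.7% to 47.3%) and 39.2% (31.6% to 47.3%) of the cells had a UMI. At 1000 UMIs per cell, these shares were 13.5% (10.7% to 16.8%) and 13.7% (8.70% to 20.2%). The intervals of the 2 libraries overlapped on each scale, and the highest neutrophil held 1.58% and 8.89% of the UMIs. Neutrophils with a Slc40a1 UMI had 6127 CPM of Fth1 in WT and those without had 6399 CPM, and the values in Vsir-/- were 8458 and 8356 CPM. In R1 macrophages, Slc40a1 was 27.3 CPM (16.5 to 42.7) in WT against 72.4 CPM (59.9 to 86.9) in Vsir-/-, but only 7 of 116 and 11 of 237 cells had a UMI. Without the highest cell, 10.2 and 12.7 CPM were left, a log2 ratio of 0.32 (-0.98 to 1.80), and the mean of the cells' own shares reversed the ratio to -0.37. The R2 clusters had 1 to 9 UMIs of Slc40a1 in each library. WT B cells had 0 in 969 cells, and Vsir-/- B cells had 8 UMIs in 8 of 88 cells (15.2 CPM).

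Slc11a1 was mostly a myeloid transcript, with 5 UMIs in WT B cells and 9 in WT NK cells. It was 92.1 CPM (70.9 to 118) in WT against 142 CPM (124 to 161) in Vsir-/- R1, 60.8 CPM (53.7 to 68.5) and 81.8 CPM (68.7 to 96.7) in M2-like R2, and 152 CPM (132 to 175) and 261 CPM (227 to 300.0) in other R2. In neutrophils, it was 93.5 CPM (81.9 to 106) and 83.7 CPM (64.6 to 107), whose intervals overlap. The log2 ratios in the macrophage clusters were 0.62, 0.43, and 0.78, none of which reached 2-fold. A UMI was found in 35.3% of WT and 52.7% of Vsir-/- R1 cells, in 35.1% and 41.1% of M2-like R2 cells, and in 48.9% and 73.3% of other R2 cells, and no cell held more than 9.38% of a macrophage sum. At 1000 UMIs per cell, a UMI was found in 12 of 109 WT (5.82% to 18.4%) and 26 of 212 Vsir-/- R1 cells (8.17% to 17.5%), and the shares were 5.87% (3.80% to 8.61%) and 6.29% (3.06% to 11.3%) in M2-like R2, and 13.9% (9.19% to 19.8%) and 21.3% (14.5% to 29.4%) in other R2. The log2 ratios of Slc11a1 in thinned cells were 0.09, 0.10, and 0.61 in these clusters and -0.63 in neutrophils. They rested on few UMIs from a single random draw, without intervals, and thinning also gave each cell the same weight. Why they were smaller in R1 and M2-like R2 than at full depth was not tested.

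The ratio of Blvrb varied among clusters. In other R2 cells, it was 113 CPM (95.5 to 133) in WT against 264 CPM (229 to 303) in Vsir-/-, and in R1 macrophages 87.8 CPM (67.1 to 113) and 174 CPM (154 to 196), log2 ratios of 1.22 and 0.99. In M2-like R2 macrophages, it was 79.2 CPM (71.1 to 88.0) and 81.8 CPM (68.7 to 96.7). At 1000 UMIs per cell, 7.78% (4.32% to 12.7%) of WT and 18.9% (12.5% to 26.8%) of Vsir-/- other R2 cells had a UMI. These shares were 11.9% (6.51% to 19.5%) and 15.1% (10.6% to 20.6%) in R1, and 8.80% (6.24% to 12.0%) and 6.29% (3.06% to 11.3%) in M2-like R2. The log2 ratios of Blvrb in thinned cells were 1.20 in other R2, 0.26 in R1, and -0.39 in M2-like R2, from few UMIs and without intervals. As a mean of the cells' own shares at full depth, the R1 ratio was 0.82. Why the R1 ratio was smaller in thinned cells was not tested. B cells were the lymphoid cluster with the most Blvrb, and there WT was higher, at 122 CPM (111 to 135) against 41.9 CPM (26.3 to 63.5). The Vsir-/- B cell level rested on 22 UMIs in 88 cells, with a tubule list of 6201 CPM against 449 CPM in WT. The B cell marker list of this cluster was also lower in Vsir-/-, at 2122 CPM against 5678 CPM in WT. Its part in the Blvrb levels was not tested. Neutrophils had 25.4 CPM in WT and 14.2 CPM in Vsir-/-, from 63 and 11 UMIs.

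Tfrc was low throughout. It was 14.4 and 5.62 CPM in R1, 4.10 and 4.78 CPM in M2-like R2, 8.59 and 16.8 CPM in other R2, and 6.05 and 16.7 CPM in neutrophils, for WT and Vsir-/- respectively, and each of these values rested on 8 to 18 UMIs. WT B cells had 34.7 CPM (28.8 to 41.5) and Vsir-/- B cells 13.3 CPM (5.36 to 27.5), whereas NK cells had 19.7 CPM (15.5 to 24.7) and 47.3 CPM (30.3 to 70.5). The B cell and NK cell ratios thus pointed in opposite directions, at log2 -1.38 (-2.73 to -0.29) and 1.27 (0.54 to 1.95). The Vsir-/- B cell level rested on 7 UMIs, and with cells thinned to 1000 UMIs the B cell ratio was 0.09. The B cell marker list was 5678 CPM in the WT and 2122 CPM in the Vsir-/- B cell cluster, and its part in the Tfrc levels was not tested.

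Cd163, the hemoglobin scavenger receptor often used to mark tissue macrophages, had 10 UMIs among all cells. In R1 macrophages, 0 UMIs were found in 116 WT cells, which allows up to 4.32 CPM, and 1 UMI was found in 237 Vsir-/- cells. None was found in either R2 cluster, which allows up to 0.683 CPM in WT and 1.79 CPM in Vsir-/- M2-like R2 macrophages. The cluster named pDC held 2 UMIs in WT and 3 in Vsir-/-. Few Cd163 transcripts were thus captured in macrophage clusters of which R1 was marked by C1q genes.

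Across the members, a call was a ratio of at least 2-fold in a cluster with at least 20 UMIs in all. In R1, 3 of the 6 members past this minimum (Hmox1, Ftl1, and Slc40a1) were called higher in Vsir-/- and none lower, against 14.3% of the 8862 genes past it that were higher and 8.67% that were lower. In M2-like R2, 2 of 6 (Hmox1 and Fth1) were higher against 8.07% of genes, and none lower against 8.17%. In other R2, 2 of 6 (Fth1 and Blvrb) were higher against 6.71%, and none lower against 10.1%. In neutrophils, 1 of 7 (Tfrc) was higher against 9.74%, and none lower against 11.9%. The median log2 ratio of the members was 1.05 in R1, 0.39 in M2-like R2, 0.95 in other R2, and -0.14 in neutrophils, and that of all genes was 0.01, -0.01, -0.07, and -0.08. All members past the minimum had a ratio above 1 in each of the 3 macrophage clusters, and 3 of 7 did in neutrophils. That did not hold under every setting, since thinned cells gave -0.39 for Blvrb and -0.22 for Tfrc in M2-like R2, leaving out the highest cells gave -0.03 for Blvrb there, and the mean over cells gave -0.37 for Slc40a1 in R1. Tfrc in R1 (19 UMIs), Slc40a1 in both R2 clusters, and Cd163 throughout did not pass.

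**Figure D5:**
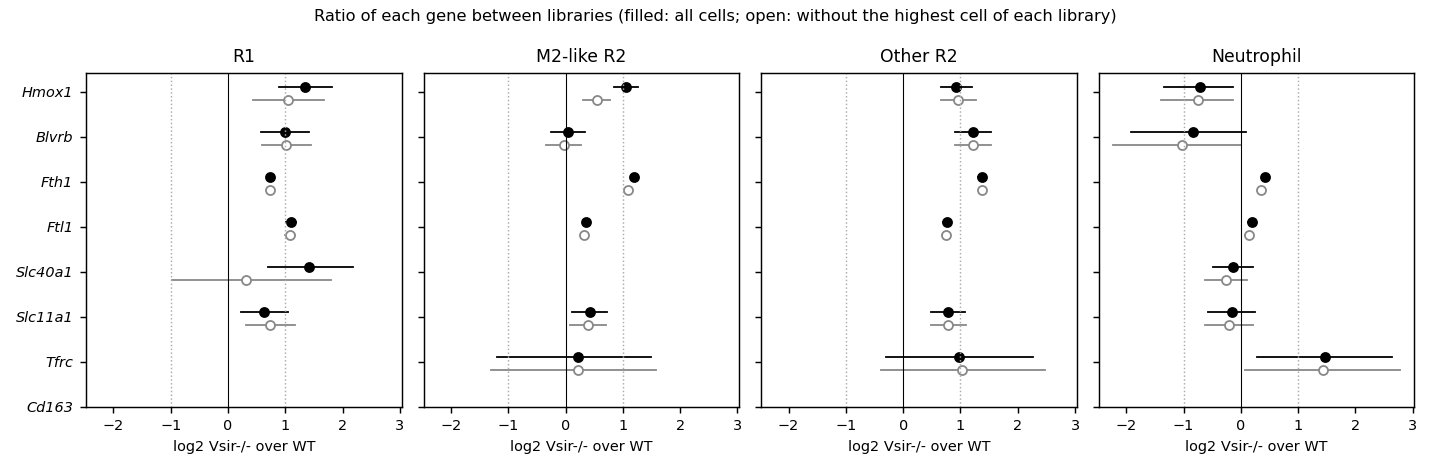
Log2 ratio of Vsir-/- over WT for each member with at least 20 UMIs in 4 myeloid clusters, with 95% exact intervals for counting error. Black points use all cells and open grey points leave out the cell of each library with the most UMIs of that gene. Dotted lines mark 2-fold. In R1, Slc40a1 shifts from 1.41 to 0.32, in M2-like R2, Hmox1 shifts from 1.05 to 0.54, and each ferritin chain keeps its side of 0.

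In lymphoid clusters, ferritin was lower than in the myeloid clusters of the same library. Fth1 was 2220 CPM (2171 to 2270) in WT against 3208 CPM (3057 to 3365) in Vsir-/- B cells and 981 CPM (949.6 to 1013) and 1472 CPM (1368 to 1581) in NK cells. Ftl1 was 847 CPM (817 to 878) and 2150 CPM (2026 to 2279) in B cells and 810.4 CPM (782 to 839.7) and 1211 CPM (1117 to 1311) in NK cells. Both chains were higher in Vsir-/- in the EM-like CD4+ T cells too, with 1424 and 2439 CPM of Fth1 and 644 and 1070 CPM of Ftl1. The tubule list differed more, from 152 to 3490 CPM in EM-like CD4+ T cells and from 81.4 to 2963 CPM in NK cells. In B cells, 1 of 4 members past the minimum was higher (Ftl1, against 15.8% of genes) and 2 were lower (Blvrb and Tfrc, against 18.2%), and in NK cells 1 of 4 (Tfrc) was higher against 9.07% and none lower against 8.79%. None of the 4 members past it in EM-like CD4+ T cells was called, against 10.4% of genes higher and 5.68% lower. Nor were the 2 past it, Fth1 and Ftl1, in EM-like CD8+ T cells (5.22% and 13.6% of genes) or gdT cells (6.24% and 7.52%). In non-EM-like CD8+ T cells, 3 of 4 were higher (Fth1, Ftl1, and Tfrc) against 9.89%, and none was lower against 12.9%, from 50 Vsir-/- cells. There the highest Vsir-/- cell held 16.3% of the Fth1 and 25.3% of the Ftl1 UMIs, and without the highest cell of each library the log2 ratios were 0.91 for Fth1, 1.03 for Ftl1, and 0.75 for Tfrc, so 1 of the 3 stayed past 2-fold. The tubule list of this cluster was 53.4 CPM in WT against 5207 CPM in Vsir-/-.

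In the non-EM-like CD4+ T cell cluster, 5 of 6 members were called higher in Vsir-/-, but 48.0% of all its genes were too (10.7% were lower), and the median of all genes was 0.92. Hmox1 had 2 UMIs in 895 WT cells and 88 in 349 Vsir-/- cells, and Slc40a1 had 2 and 100. Both passed the minimum through Vsir-/- alone. Of the Vsir-/- cells, 116 had a T cell transcript, and these had 13 Hmox1 and 12 Slc40a1 UMIs beside a tubule list of 6392 CPM, which was 135 CPM in the WT cells. The other cells, 233 in number, had 75 and 88, with a tubule list of 16681 CPM.

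The wider lists of iron and heme genes held 66 measured genes, of which 48 in R1, 54 in M2-like R2, 49 in other R2, and 44 in neutrophils passed the minimum. At least 2-fold higher in Vsir-/- were 15, 8, 7, and 6 of them, and lower were 2, 2, 3, and 2, with median log2 ratios of 0.54, 0.24, 0.27, and 0.02. Of all genes past the minimum in the same 4 clusters, 14.3%, 8.07%, 6.71%, and 9.74% were higher and 8.67%, 8.17%, 10.1%, and 11.9% were lower, with medians of 0.01, -0.01, -0.07, and -0.08. The members are counted in these lists and each single list that follows holds at most 8 genes past the minimum. Of the storage genes outside ferritin, Pcbp2, an iron chaperone that delivers iron to ferritin, was 415 CPM in WT against 398 CPM in Vsir-/- M2-like R2 macrophages and 426 and 370.1 CPM in other R2, so it did not follow Fth1 in these clusters.

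Of the iron uptake genes, 2 of 3 past the minimum in R1, 1 of 6 in M2-like R2, 0 of 3 in other R2, and 1 of 3 in neutrophils were called higher, beside the 14.3%, 8.07%, 6.71%, and 9.74% of all genes. Of the export and control genes, 2 of 7, 1 of 5, 0 of 6, and 0 of 5 were higher. In other R2, 1 was lower (Smad7) against 10.1% of all genes, and in neutrophils 1 (Hfe) against 11.9%. Trf, which encodes transferrin, was 194 CPM in WT against 392 CPM in Vsir-/- R1 macrophages, a log2 ratio of 1.01 (0.74 to 1.29). It was 75.1 and 81.2 CPM in M2-like R2. Hfe, a regulator of hepcidin and of transferrin receptor binding, was 82.9 and 46.0 CPM in M2-like R2 macrophages, and Fbxl5, the iron-sensing ubiquitin ligase subunit that degrades iron regulatory protein 2, was 108 and 74.0 CPM there. In neutrophils, Fbxl5 was 473 CPM in WT against 305 CPM in Vsir-/-. Smad7, an inhibitor of BMP and TGF-β signaling, was 70.3 and 32.4 CPM in other R2 cells, a log2 ratio of -1.12 (-1.82 to -0.47).

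Of the heme uptake and transport genes, 1 of 4, 1 of 5, 2 of 4, and 1 of 5 were called higher in the 4 clusters in the same order. In R1, 1 was lower (Hp) against 8.67% of all genes, and in neutrophils 1 (Lrp1) against 11.9%. Of the heme breakdown genes, 1 of 4 was higher in each macrophage cluster and 0 of 4 in neutrophils. The shares of all genes called higher were again 14.3%, 8.07%, 6.71%, and 9.74%. Hp, which encodes the hemoglobin-binding haptoglobin, was 354 CPM in WT against 736 CPM in Vsir-/- other R2 cells, a log2 ratio of 1.06 (0.88 to 1.24). It was 1107 and 915 CPM in M2-like R2 and 1771 and 1794 CPM in neutrophils. The heme exporter gene Abcg2 was 2.73 and 19.1 CPM in M2-like R2 and 2.02 and 50.2 CPM in neutrophils, and is also a transcript of the proximal tubule. Hmox2, the constitutive heme oxygenase, was 102 and 111 CPM in R1, 123 and 113 CPM in M2-like R2, and 53.9 and 55.6 CPM in other R2, and the intervals of its ratio include 0 in all 3 clusters. Lrp1, the receptor for heme bound to hemopexin, was 250.2 and 211 CPM in M2-like R2. Of the heme synthesis genes, 2 of 7, 0 of 8, 1 of 7, and 0 of 4 were higher. Alas1, the first enzyme of the path, was 41.9 and 62.1 CPM in M2-like R2 and 25.0 and 24.6 CPM in other R2.

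Of the secreted iron-withholding proteins, 2 of 2 past the minimum were lower in both Vsir-/- R2 clusters, against 8.17% of all genes in M2-like R2 and 10.1% in other R2. In R1, the 1 past it (Lcn2) was higher, against 14.3% of all genes. The minimum is on UMIs of both libraries together. Lcn2 in R1 (3 WT and 25 Vsir-/- UMIs) passed it through Vsir-/- alone, which favors a call. Ltf passed it through WT alone in M2-like R2 (170 and 1 UMIs) and other R2 (88 and 1 UMIs). In neutrophils, neither of 2 was called, against 9.74% of all genes higher and 11.9% lower. Lcn2, which binds siderophores, was 4.32 CPM in WT against 15.6 CPM in Vsir-/- R1 macrophages, from 3 and 25 UMIs, a log2 ratio of 1.85 (0.14 to 4.23). It was 105 CPM in WT against 30.4 CPM in Vsir-/- M2-like R2 macrophages and 93.7 and 15.5 CPM in other R2. Ltf, which encodes lactoferrin, was 38.7 and 0.597 CPM in M2-like R2, the latter being 1 UMI. In neutrophils themselves, Lcn2 was 4080 and 5401 CPM and Ltf 1347 and 2371 CPM. The neutrophil marker list was 4341 CPM in WT against 244 CPM in Vsir-/- M2-like R2 macrophages, 3624 and 214 CPM in other R2, and 1744 and 132 CPM in R1. The tubule list was 818 and 2026 CPM in M2-like R2, 878 and 3063 CPM in other R2, and 429 and 2609 CPM in R1. The part of either list in the Lcn2 and Ltf values was not tested.

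Of the mitochondrial iron genes, 1 of 7 in R1 and 2 of 6 in neutrophils were called higher, and 1 was lower in R1. None of 7 was called in either R2 cluster. Of all genes, 14.3% were higher and 8.67% lower in R1, and 9.74% were higher in neutrophils. In M2-like R2, 8.07% were higher and 8.17% lower, and in other R2, 6.71% and 10.1%. Cisd1, which encodes an iron-sulfur protein of the outer membrane, was higher in Vsir-/- R1 (18.7 and 66.2 CPM) and neutrophils (8.87 and 77.2 CPM), beside the higher tubule list. Of the regulators, 1 of 5 was higher in R1 and in M2-like R2 (Spic), against the same 14.3% and 8.07% of all genes. None was higher in other R2 or neutrophils. Nfe2l2, whose product NRF2 drives Hmox1 and both ferritin chains, was 173 and 222 CPM in R1, 270.0 and 376 CPM in M2-like R2, and 393 and 624 CPM in other R2. In neutrophils, Nfe2l2 was 316 and 283 CPM. Bach1, the heme-sensing repressor of the same genes, was 87.8 and 61.8 CPM in R1, 145 and 159 CPM in M2-like R2, and 134 and 175 CPM in other R2. Of the other known NRF2 targets, Txnrd1 was 37.8 and 81.8 CPM in M2-like R2 and 77.3 and 128 CPM in other R2. Slc7a11, the cystine importer, was 35.9 and 76.4 CPM in other R2 but 613 and 457 CPM in neutrophils. Prdx1 was 312 and 620.2 CPM in R1 and 57.2 and 192 CPM in neutrophils. In both of these clusters the tubule list was higher in Vsir-/-, and its part in these values was not tested. Gpx4, which reduces lipid peroxides, was 122 and 250.4 CPM in R1. Over that list of 8 genes, 3 of 5 past the minimum were called higher in R1, 2 of 7 in M2-like R2, 2 of 6 in other R2, and 2 of 6 in neutrophils (14.3%, 8.07%, 6.71%, and 9.74% of all genes), and none was lower.

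Spic, singled out after its values were seen, had 2 UMIs in 2 of 116 WT R1 macrophages and 62 UMIs in 22 of 237 Vsir-/- R1 macrophages. With the highest Hmox1 cell set aside, 32 UMIs were left in Vsir-/-, so Spic was not limited to that cell, unlike Cd5l, of which 140 of 141 UMIs lay in it. Vcam1 was not limited to it either, with a UMI in 18 of 116 WT and 92 of 237 Vsir-/- R1 cells. Nor was Spic limited to R1, at 17.2 CPM in WT and 20.7 CPM in Vsir-/- other R2 cells.

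Over 29 pairs of cluster and library, the levels of the members were compared with those of 8785 genes by Pearson's r of log2(CPM + 1), as a description of pairs that share libraries and depth. Hmox1 was most like Cd302 (r = 0.920), Tnfaip2 (0.895), and Ifitm3 (0.888). Slc11a1 was most like Fcgr4 (0.936), Sat1 (0.932), and Pilrb2 (0.917), and Slc40a1 like Mtus1 (0.812), Rab20 (0.783), and Slc6a6 (0.776). Fth1 was most like Lamp2 (0.883), Ralb (0.870), and Slc31a2 (0.865), and Ftl1 like Fgd4 (0.918), Ltbr (0.914), and 6430548M08Rik (0.912). Blvrb was most like Lmo2 (0.869), Maml3 (0.863), and Zfp710 (0.856), and Tfrc less closely like Tdp2 (0.659), Net1 (0.649), and Zw10 (0.620). The 10 UMIs of Cd163 were too few for such a comparison. Between members, r was 0.879 for Hmox1 and Ftl1, 0.864 for the 2 ferritin chains, and -0.492 for Slc11a1 and Tfrc. Within clusters at 1000 UMIs per cell, the Spearman rho of Fth1 and Ftl1 over cells was 0.230 in WT and 0.461 in Vsir-/- R1, 0.101 and 0.234 in M2-like R2, 0.313 and 0.487 in other R2, and 0.201 and 0.202 in neutrophils, values that share each cell's depth and gene composition.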

How the data were processed

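Kidney cells were profiled in 1 WT and 1 Vsir-/- 10x 3′ library. Per the submitters' processing notes, Cell Ranger 3.1.0, R 4.0.3, Seurat 3.2.3, and genome build mm9 were used, and the authors clustered and named the cells. The deposited counts are whole-number UMIs per gene and cell, without normalization. Deposited percent values (mitochondrial UMIs per cell) served only for an alternative limit of 5%. Deposited UMAP coordinates (score values of the authors' embedding) were not used. For each cluster and library, a gene's summed UMIs were scaled to 1000000 UMIs (CPM). Intervals are exact Poisson, exact conditional (ratios), and Clopper-Pearson (shares) at 95%, and a count of 0 was taken to allow 3 counts. A call was a ratio of at least 2 with at least 20 UMIs over both libraries together. A gene near 0 in 1 library could thus pass through the other alone. Cells were thinned to 1000 UMIs without replacement (seed 1), which left out 167 WT and 78 Vsir-/- cells. Doublets were not called. The steps were tested on simulated counts. With 1 library per genotype, no p-value was computed.

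The members, gene lists, and tests were chosen with earlier results of these data known. Text names the 8 members, in each list up to 3 genes with the most UMIs, those past 2-fold with at least 100 UMIs in a myeloid cluster, and the 3 genes most like each member. Others are marked, and 1 gene that this rule names is not reported here. Hamp, Hamp2, and Ahsp were not analysed here. Promoter windows are RefSeq's on GRCm38.p6, not the build of the counts, and the start nearest to a GENCODE M21 start was used. Python 3.11.15, numpy 2.4.6, scipy 1.17.1, pandas 2.3.3, and matplotlib 3.10.9 were used.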

Additional observations from a re-analysis of the deposited data

Results flagged for a closer look

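For 3 members, ratios between the libraries pointed in opposite directions in different clusters, and these differences were not tested, since each genotype has 1 library. For Hmox1, the log2 ratio of Vsir-/- over WT reached 5.41 in the non-EM-like CD4+ T cell cluster, of which 218 Vsir-/- cells had neither a T cell transcript nor a Ptprc UMI, and -0.72 in neutrophils. The log2 ratio of Blvrb was 1.64 in the same CD4+ cluster and -1.54 in B cells. The log2 ratio of Tfrc was 1.47 in neutrophils, from 15 and 13 UMIs, and -1.38 in B cells, from 121 and 7 UMIs.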

How the results depend on the processing

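No paired analysis was possible because each genotype has 1 library, and no replicate could be left out. The number of members called higher in Vsir-/- R1, 3 as reported, was 1 with cells thinned to 1000 UMIs and 0 with the mean over cells, and 1 was called lower with no filter and 0.5 UMIs added. In M2-like R2, 1 rather than 2 was higher without the highest cell of each library, a setting chosen after seeing the data. In neutrophils, 0 rather than 1 was higher with a tubule list of at most 0.5% or thinned cells, and 1 rather than 0 was lower without the highest cells. In B cells, 5 rather than 1 were higher with no filter. That setting let in members under 20 UMIs, such as Hmox1 (4 and 9 UMIs) and Slc40a1 (0 and 8 UMIs). There, 1 rather than 2 was lower with thinned cells or the mean over cells. In NK cells, 2 rather than 1 were higher with a mitochondrial limit of 5% or the mean over cells, 4 with no filter, and 0 with thinned cells. The share of all genes called was not computed under these settings, so the changed counts cannot be set against it. The causes were not tested.

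The Ftl1 share of ferritin in M2-like R2 was 50.9% in WT and 34.1% in Vsir-/- with thinned cells, and 49.0% and 39.4% as a mean over cells. In other R2, it was 36.5% in Vsir-/- with thinned cells, and 48.5% and 38.9% as a mean over cells, and in neutrophils 39.0% and 34.1% as a mean over cells. The order of the libraries was the same in each of these. The ratio of Slc40a1 in R1 reversed to -0.37 as a mean over cells, and that of Tfrc in B cells to 0.09 with thinned cells. Of 51 member ratios, 48 kept their direction under all 7 settings that used cells at full depth, the others being Slc40a1 in R1, Blvrb in M2-like R2 (-0.03 without the highest cells), and Tfrc in non-EM-like CD4+ T cells (-0.38 to -0.02 under 5 settings). With thinned cells 42 of 48 did, Blvrb (-0.39) and Tfrc (-0.22) in M2-like R2 and Ftl1 in gdT cells (-0.10) being among the other 6. The minimum of 20 UMIs was applied at full depth and not to thinned counts, so ratios in thinned cells can rest on fewer UMIs. Tfrc in M2-like R2, for example, had a UMI in 3 WT and 1 Vsir-/- thinned cells. Ratios with a count of 0 in either library at this depth were left out.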
